A study of Mus musculus with 4 samples.

Results

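Genes of bone resorption and osteoclast fusion were followed in sorted mouse ankle synovial cells: Acp5, Ctsk, Mmp9, Ocstamp, Dcstamp, Atp6v0d2, Oscar, Nfatc1, Tnfrsf11a and Calcr. They are 10 of the 32285 genes counted in each library and were chosen by name, for their known roles in osteoclasts. Osteoclasts are the multinucleated cells that dissolve bone, and they arise when precursors of the monocyte and macrophage lineage fuse. The cytokine RANKL binds the receptor RANK, encoded by Tnfrsf11a, and the signal induces the transcription factor Nfatc1, which switches on the genes of fusion and resorption. In inflamed joints such cells are known to erode bone next to the synovium.

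The cells came from bone marrow chimeras in which CD45.1 B6 marrow was given to CD45.2 B6 mice whose ankle was shielded from irradiation, so both donor (CD45.1) and host (CD45.2) cells can be present. Arthritis was induced by serum of K/BxN mice (serum-transfer arthritis, STIA), and ankles were taken from untreated mice (day 0, called baseline) and 7 days (peak), 14 days (plateau) and 56 days (resolution) into the disease. Live cells positive for CD45 and CD11b were sorted after Ly6G+, CD177+, Ly6C+, CD64+, SiglecF+ and MHCII+ cells had been gated out, and RNA and surface antibodies were counted in the same droplets (CITE-seq). Each stage had 1 library, so a difference between stages has no replicate check. No source used here gives the number of mice, their age or the share of host cells in blood. All 3 arthritis titles also carry the tag "Clo-lip", which no label explains and which cannot be told apart from having received serum.

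After filtering there were 1071 cell barcodes at baseline, 5941 at peak, 2828 at plateau and 4611 at resolution, 14451 in all, with medians of 7752, 8250, 6782.5 and 4912 UMIs (unique molecules of gene RNA). Levels are given as CPM, a gene's UMIs scaled to 1000000 gene UMIs of a group, with exact 95% Poisson intervals that cover counting error only. Ptprc, the gene of CD45, had a UMI in 75.2% to 89.6% of the barcodes of a library, and Itgam, the gene of CD11b, in 63.2% to 80.9%. Between 2.71% and 5.41% of the barcodes of a library fell into fibroblast-like clusters, which the sort should not contain. The gates on Ly6G, CD177, Ly6C and CD64 should likewise have removed neutrophils, classical monocytes and macrophages, yet neutrophil-like clusters held 71 and 25 barcodes, a classical monocyte-like one 286 and a macrophage-like one 1948. Among barcodes without an Acp5 or Ctsk UMI, 7 neutrophil genes together reached 39708 CPM at baseline against 139 to 1813 CPM in the arthritis libraries, and their part in the totals that CPM rests on was not tested.

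At peak, every member with enough counts, at least 30 UMIs in both libraries together, stood above baseline. Of these, 9 of 9 were at least 2-fold higher, against 8.52% of the 13084 genes compared. Another 12.6% of genes, and no member, were lower by as much. Oscar, Dcstamp, Atp6v0d2 and Ocstamp had 0, 24, 25 and 29 UMIs at baseline and passed this filter only through peak. Their part in the 9 of 9 is therefore not read as support. Acp5, Ctsk, Mmp9, Nfatc1 and Tnfrsf11a had 42 or more at baseline, enough without peak. Acp5, the tartrate-resistant acid phosphatase used as an osteoclast stain, had 24.3 CPM at baseline, 1443 at peak, 6323 at plateau and 204 at resolution. Ctsk, cathepsin K, the main protease that cuts bone collagen, had 41.8, 2913, 11575 and 564 CPM in the same order of stages. Both were thus lowest at baseline and highest at plateau, and at resolution they stood 8.43-fold and 13.5-fold above baseline for Acp5 and Ctsk. The ratio of peak to baseline was 59.5 (95% interval 53.0 to 67.0) for Acp5 and 69.7 (63.8 to 76.2) for Ctsk.

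Mmp9, a gelatinase secreted by osteoclasts and neutrophils, had 3.51 CPM at baseline, 569 at peak, 2766 at plateau and 66.5 at resolution. Atp6v0d2, a subunit of the proton pump that acidifies the resorption pit and also takes part in fusion, had 2.09, 134, 524 and 18.2 CPM in that order. At peak over baseline Mmp9 was 162-fold higher (120 to 225) and Atp6v0d2 64.3-fold higher (43.5 to 99.4). Oscar, a collagen-binding receptor that gives osteoclast precursors a costimulatory signal, had 0 UMIs at baseline, 16.1 CPM at peak, 83.8 CPM at plateau and 3 UMIs (0.111 CPM) at resolution. With 0 counts at baseline, the exact interval put Oscar at least 52.0-fold higher at peak, and a limit of 3 counts gave 64.1-fold.

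Dcstamp and Ocstamp encode membrane proteins that osteoclast precursors need to fuse. Dcstamp had 2.01, 27.4, 160 and 19.0 CPM from baseline to resolution, and Ocstamp 2.43, 28.3, 110 and 3.80. The fusion genes therefore started from a level like that of Atp6v0d2 but reached a lower one at plateau, counted per UMI of 3' reads. Nfatc1 had 28.5, 80.8, 218 and 40.4 CPM and Tnfrsf11a 17.3, 45.3, 99.5 and 42.4 CPM. The receptor and the transcription factor thus already had UMIs at baseline and had the smallest ratios of peak to baseline, 2.62 for Tnfrsf11a and 2.83 for Nfatc1. Calcr, the receptor for calcitonin on mature osteoclasts, had 0, 3, 11 and 3 UMIs and is too sparse to rank.

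**Figure D1:**
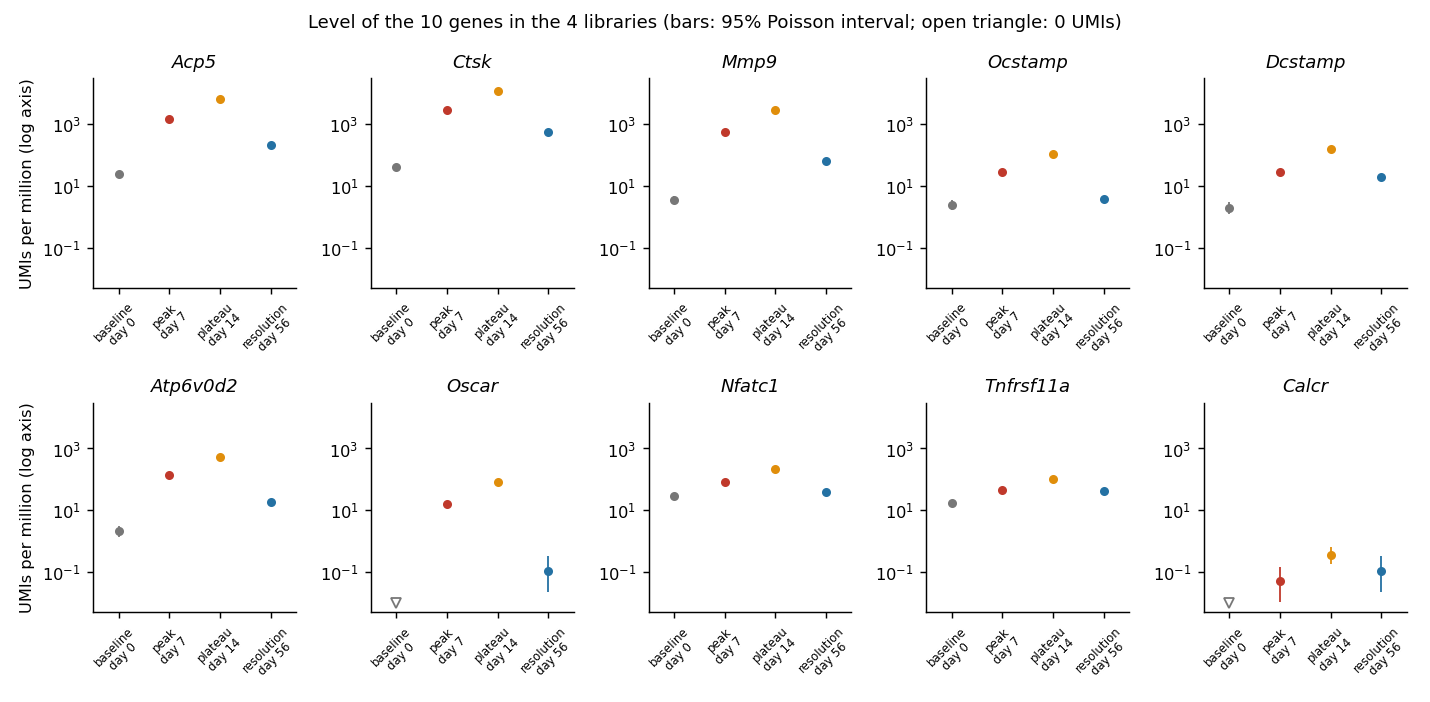
Level of each of the 10 genes in CPM (log axis) in the baseline, peak, plateau and resolution libraries, 1 library each, with 95% Poisson intervals for counting error; open triangles mark 0 UMIs. Each gene but Calcr, which is too sparse to rank, is highest at plateau, and Oscar, at 83.8 there, is back at 3 UMIs at resolution.

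At plateau over peak, 9 of 9 members were again at least 2-fold higher, against 15.1% of the genes compared (5.07% were lower, and no member), with ratios between 2.20 for Tnfrsf11a and 5.83 for Dcstamp. With edgeR's TMM totals in place of all UMIs the count was 8 of 9, because the log2 ratio of Tnfrsf11a was 0.88 in place of 1.13. At resolution over plateau 9 of 9 were at least 2-fold lower, against 10.5% of genes (13.4% were higher, and no member). Mmp9 was 41.6-fold lower, Acp5 30.9-fold, Ocstamp 28.9-fold, Atp6v0d2 28.8-fold and Ctsk 20.5-fold lower, but Dcstamp 8.39-fold, Nfatc1 5.39-fold and Tnfrsf11a 2.34-fold lower. Oscar was 756-fold lower, an interval of 259 to 3671 from 3 counts at resolution. At resolution over baseline 6 of the 8 members compared were at least 2-fold higher, against 11.8% of genes (5.61% were lower, and no member), between 2.45-fold for Tnfrsf11a and 18.9-fold for Mmp9; Ocstamp at 1.57-fold (1.03 to 2.46) and Nfatc1 at 1.42-fold (1.25 to 1.60) were below that mark. The median log2 ratio of the members was 5.89, 1.99, -4.84 and 3.08 in the 4 comparisons, and that of all genes -0.13, 0.30, 0.06 and 0.18. These comparisons share libraries and are not independent of each other. At resolution over plateau Oscar passed the filter of 30 UMIs only through plateau. At resolution over baseline Dcstamp, Atp6v0d2 and Ocstamp passed it only through resolution. Their part in those counts of members is not read as support either.

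In each library, these levels mix the number of cells that express a gene with its level per cell. Barcodes in which Acp5 and Ctsk together made up at least 30 of 10000 gene UMIs were 1 of 1071 at baseline (0.0934%), 293 of 5941 at peak (4.93%), 664 of 2828 at plateau (23.48%) and 118 of 4611 at resolution (2.56%). Clustering placed 926 barcodes in osteoclast-like clusters, named from 8 osteoclast markers that include members, and these clusters held 97.4% of all Acp5 UMIs, 95.9% of Ctsk, 98.4% of Mmp9, 97.8% of Oscar, 97.3% of Atp6v0d2, 91.0% of Dcstamp and 90.0% of Ocstamp. They held 65.0% of Nfatc1 and 44.5% of Tnfrsf11a UMIs. Membership rests on these genes, so the shares are a description with no test.

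The main osteoclast-like cluster held 269 barcodes at peak, 449 at plateau and 48 at resolution, with 2 at baseline and a median of 26467 UMIs. Within it, Ctsk had 21771 CPM at peak, 25966 at plateau and 13181 at resolution, and Acp5 10877, 14270 and 6933. Mmp9 had 4337, 6282 and 2416 CPM, Atp6v0d2 1016, 1185 and 545, and Tnfrsf11a 126, 160 and 116. Each was lower at resolution than at plateau, by less than in the library as a whole. Dcstamp, at 206, 362 and 81.1 CPM, and Ocstamp, at 174, 247 and 73.0, were lower at resolution than at plateau by a wider margin than Ctsk. Oscar differed most, with 122 CPM at peak, 189 at plateau and 4.05 at resolution (3 UMIs, interval 0.836 to 11.8). A second osteoclast-like cluster of 158 barcodes, 156 of them from plateau, was shallow, with a median of 685 UMIs, and had 13816 CPM of Ctsk and 117 of Oscar.

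Promoter sequences of the RefSeq table (build GRCm38.p6) matched 5 of the 10 genes by symbol. Those of 4 are shown, to compare Ctsk and Acp5, which set the scale used below, with Oscar, the last to appear on it, and Tnfrsf11a, counted throughout. The fifth is Calcr. In the same RefSeq build Mmp9 spans chr2:164940326-164955850 and Ocstamp chr2:165395450-165400394, Dcstamp lies at chr15:39745930-39760938, Atp6v0d2 at chr4:19876838-19922566 and Calcr at chr6:3685678-3764713. Each sequence shown runs 5' to 3' over the 250 bases before the transcription start on the gene's strand, with matches on either strand in capitals. The motifs searched were the NFAT core GGAAA, the PU.1 core with letters GAGGAA and an E-box with letters CATGTG, of a type that MITF binds, and a match on the other strand reads as the reverse complement. The window of Ctsk is chr3:95498960-95499209 on the plus strand. For Acp5 the most downstream of 3 annotated starts is shown, chr9:22130599-22130848 on the minus strand. The windows of Oscar and Tnfrsf11a are chr7:3616158-3616407 on the minus strand and chr1:105780473-105780722 on the plus strand. The annotated span of Tnfrsf11a starts at chr1:105780673, so the end of its window lies within that span.
Ctsk: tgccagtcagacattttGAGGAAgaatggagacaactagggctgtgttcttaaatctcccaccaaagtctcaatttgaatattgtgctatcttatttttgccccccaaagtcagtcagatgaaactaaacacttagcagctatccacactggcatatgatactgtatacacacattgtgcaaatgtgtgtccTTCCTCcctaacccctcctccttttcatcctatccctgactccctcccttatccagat
Acp5: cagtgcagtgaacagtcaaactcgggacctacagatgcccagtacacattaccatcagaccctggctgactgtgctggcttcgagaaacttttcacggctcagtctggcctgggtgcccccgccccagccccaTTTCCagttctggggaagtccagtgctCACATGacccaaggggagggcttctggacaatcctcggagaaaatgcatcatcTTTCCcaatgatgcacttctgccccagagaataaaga
Oscar: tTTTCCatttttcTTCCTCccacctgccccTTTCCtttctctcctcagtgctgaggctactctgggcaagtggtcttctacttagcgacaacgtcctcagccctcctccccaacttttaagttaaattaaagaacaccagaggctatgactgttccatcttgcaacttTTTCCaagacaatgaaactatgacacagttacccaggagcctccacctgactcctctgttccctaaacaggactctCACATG
Tnfrsf11a: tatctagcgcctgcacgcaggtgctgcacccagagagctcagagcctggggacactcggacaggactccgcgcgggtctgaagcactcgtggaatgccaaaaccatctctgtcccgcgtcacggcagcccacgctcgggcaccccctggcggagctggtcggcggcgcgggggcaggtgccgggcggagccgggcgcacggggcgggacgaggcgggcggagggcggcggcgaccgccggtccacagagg

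The Oscar window held 3 NFAT cores, 1 PU.1 core and 1 CATGTG at 6 bases before the start. The Acp5 window shown held 2 NFAT cores and 1 CATGTG, and those of its other starts 1 NFAT core each. Ctsk held 2 PU.1 cores and no NFAT core, and Tnfrsf11a held none of these motifs. Among 32851 promoter windows of the table, 55.6% hold an NFAT core, 23.3% a PU.1 core and 12.3% a CATGTG, so single matches are common. Neither the AP-1 motif TGANTCA (6.75% of windows) nor CACGTG (6.02%) occurred in a window of these 5 genes. A match is a run of letters and was not tested for binding.

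To order the other genes, barcodes were sorted by the joint share of Acp5 and Ctsk in their UMIs and grouped at 0, above 0 to 3, 3 to 10, 10 to 30, 30 to 100, 100 to 300 and at least 300 per 10000. These 7 bins held 6762, 3631, 2248, 734, 232, 431 and 413 barcodes. A gene was said to appear in the first bin that reached 50% of its highest bin. A gene with a high level at 0 needs a smaller rise to reach this mark. The order is therefore not an order of rise over the level at 0. The scale is a ranking of barcodes by 2 members, not a course in time, and the bins differ in median depth, from 4549.5 UMIs at 10 to 30 to 29836 at 300 and more.

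Tnfrsf11a appeared first, at 30 to 100. It had 35.7, 37.2, 37.2 and 44.5 CPM in the first 4 bins and 89.6, 137 and 154 CPM in the last 3, so it also had UMIs in barcodes with no Acp5 or Ctsk UMI. Nfatc1 had 36.1, 40.8, 53.8, 76.1, 198, 377 and 412 CPM, higher in each bin than in the one before. It stood at 48.1% of its highest value at 30 to 100 and at 91.5% at 100 to 300. These bins pool libraries in unequal shares. Within the peak library Tnfrsf11a had 134 CPM in the top bin and 36.9 at 0, and within plateau 164 and 63.4. Nfatc1 had 389.7 CPM in the top bin and 42.2 at 0 at peak, and 424 and 73.7 at plateau.

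Mmp9, Atp6v0d2 and Ocstamp appeared at 100 to 300. Mmp9 had 7.99 CPM at 0, 36.7 at 10 to 30, 504 at 30 to 100, 3991 at 100 to 300 and 7051 at 300 and more. Atp6v0d2 had 3.13, 44.8, 242, 866 and 1355 CPM in the same bins, and Ocstamp 3.59, 3.79, 32.0, 155 and 276. Within single libraries Atp6v0d2 had 46.6 CPM at 10 to 30 against 4.17 at 0 at peak, 59.7 against 10.3 at plateau and 17.4 against 2.95 at resolution. Mmp9 had 36.3 against 17.2 CPM at peak, 57.0 against 37.4 at plateau and 0.724 (1 UMI) against 0.491 at resolution.

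Dcstamp and Oscar appeared last, at 300 and more. Dcstamp had 10.2 CPM at 0, 1.84 to 2.89 in the next 3 bins, 26.0 at 30 to 100, 189 at 100 to 300 and 398 at 300 and more. Of its 464 UMIs at 0, however, 418 came from the resolution library. Within the peak library Dcstamp had 1.04, 1.24, 1.38, 2.74, 63.7, 149 and 286 CPM from the lowest to the highest bin. Oscar had between 0.197 and 2.17 CPM in the first 5 bins, 52.6 at 100 to 300 and 242 at 300 and more. At 100 to 300 Oscar had reached 21.7% of its highest value, whereas Dcstamp had reached 47.4%, Mmp9 56.6% and Tnfrsf11a 89.1%. Calcr had 1 UMI at 100 to 300 and 16 at 300 and more, and none in the other bins.

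**Figure D2:**
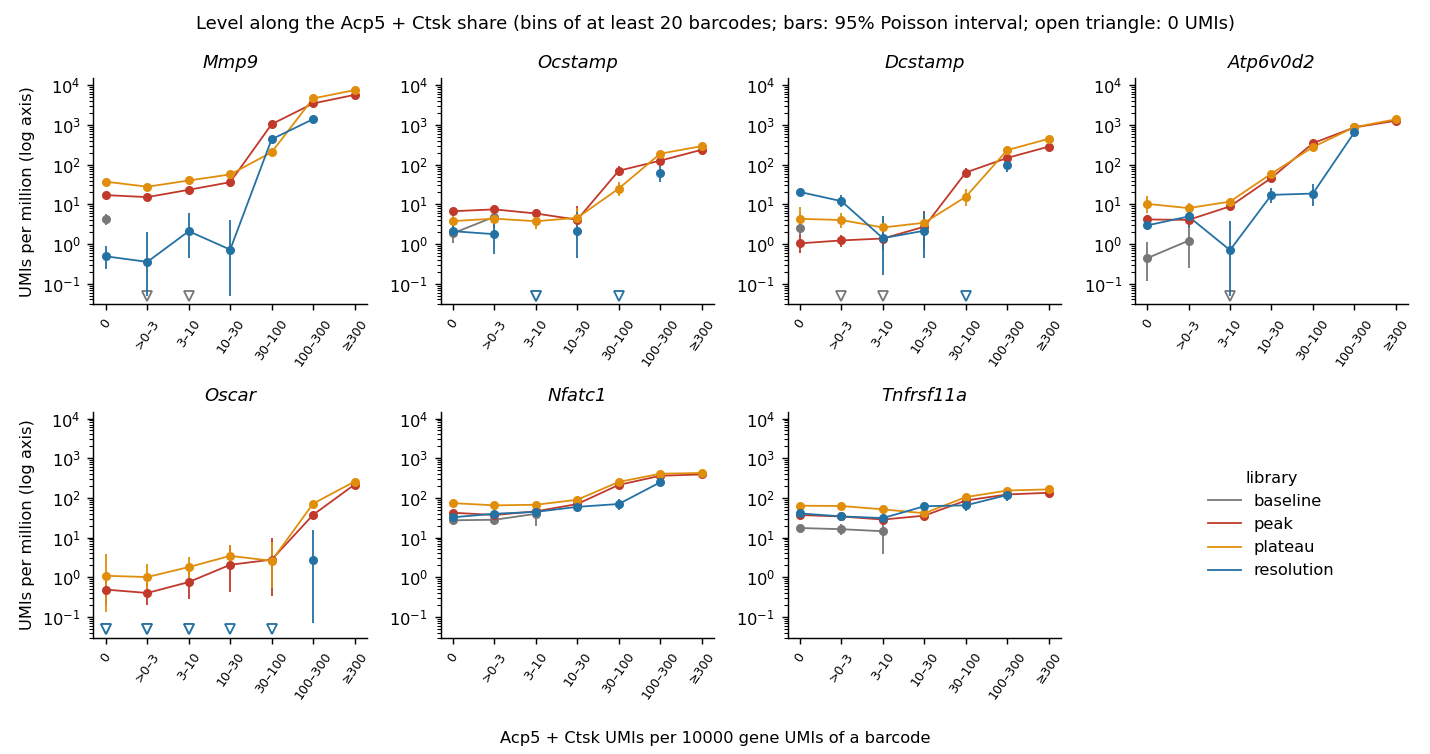
Level of 7 genes in CPM (log axis) along the Acp5 plus Ctsk share of a barcode's UMIs, drawn per library for bins of at least 20 barcodes, with 95% Poisson intervals; open triangles mark 0 UMIs. At peak and plateau Tnfrsf11a and Nfatc1 differ least between the lowest and the highest bin, and Oscar is low up to 30 to 100.

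The order was alike in the peak and plateau libraries taken alone: Tnfrsf11a and Nfatc1 at 30 to 100, Mmp9, Ocstamp, Dcstamp and Atp6v0d2 at 100 to 300, and Oscar at 300 and more. Within 30 to 100, however, Mmp9 had 206 CPM at plateau and 1052 at peak. At resolution, where the top bin held only 10 barcodes and was not ranked, Tnfrsf11a appeared at 10 to 30 and Mmp9, Ocstamp, Dcstamp, Atp6v0d2 and Nfatc1 at 100 to 300. Oscar had 1 UMI in the 24 barcodes of that bin (2.74 CPM, 0.0694 to 15.3) and is left unranked there. In the 10 barcodes of the top bin Mmp9 had 6477 CPM and Oscar 12.8 (2 UMIs). Of the 734 barcodes at 10 to 30, 23.4% were fibroblast-like, and 27.6% of those at 30 to 100 were osteoclast-like, against 97.4% and 95.9% in the top bins. Without fibroblast-like barcodes Nfatc1 appeared at 30 to 100 and Tnfrsf11a at 10 to 30, and without the resolution library Nfatc1 also appeared at 30 to 100. Oscar appeared at 300 and more in both settings.

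Among barcodes at 100 and more with at least 2000 UMIs, the rank correlation of a gene's level with the share was 0.58 at plateau (399 barcodes) and 0.67 at peak (221 barcodes) for Oscar, and 0.50 and 0.45 for Atp6v0d2. For Nfatc1 it was 0.00 and -0.02, and for Tnfrsf11a 0.06 and 0.08. The barcodes of a library share its depth differences, and the share itself correlated with depth at 0.38 and 0.29, so these values are a description.

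Several members were read in the same barcode. At least 4 of the 8 members other than Acp5 and Ctsk had a UMI in 0.104% of barcodes at 0, 2.32% at 10 to 30, 20.3% at 30 to 100, 61.0% at 100 to 300 and 92.5% at 300 and more. After thinning every barcode to 2000 UMIs the shares of the last 3 bins were 2.19%, 37.8% and 66.2%. Among 61 basophil-like barcodes at peak, a cell type that should lack these genes, 0 had 4 or more, at a median of 3647 UMIs. The exact binomial interval allows a share of up to 5.87%. Those barcodes still had 90.3 CPM of Acp5, 173 of Ctsk and 36.1 of Mmp9, with Oscar, Dcstamp and Atp6v0d2 at 0. Nfatc1 and Tnfrsf11a had 18.1 CPM each there (5 UMIs, 5.86 to 42.1), an interval that takes in their levels of 36.1 and 35.7 in the 0 bin. A level near those of basophil-like barcodes was not read as expression.

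Outside the osteoclast-like clusters, an unnamed cluster of 84 barcodes led by Tpm1, Cald1 and Serpinh1, genes that stromal cells are known to express, also held most members. It was shallow, with a median of 868.5 UMIs, and 39 of its barcodes came from peak and 44 from plateau. It had 9179 CPM of Ctsk, 4831 of Acp5, 2643 of Mmp9, 332 of Atp6v0d2, 180 of Oscar, 104 of Dcstamp and 94.7 of Ocstamp. Osteoclast was the type with the most markers up in it, 4 of 8. In the finer clustering (Leiden resolution 1.2), a cluster of 90 barcodes also led by Tpm1, Cald1 and Serpinh1 was named osteoclast-like, with 6 of 8. Other clusters stood out for fewer members. Ctsk had 733 and 1091 CPM in the 2 fibroblast-like clusters and 361 CPM in the macrophage-like one. Mmp9 had 801 CPM in a neutrophil-like cluster of 25 barcodes. Tnfrsf11a had 80.1 CPM in the macrophage-like cluster and 80.2 CPM in an unnamed one led by Cav1, Spp1 and Arg1, in which Nfatc1 had 101 CPM. Dcstamp, which dendritic cells and macrophages are also known to express, had 49.3 CPM in an unnamed cluster of 1186 barcodes led by Ccl17, Rnase2a, Mmp12 and Mgl2, of which 1125 came from resolution. At resolution osteoclast-like barcodes held 99.2% of Mmp9 UMIs and 63.8% of Ctsk UMIs but 11.6% of Dcstamp, 16.6% of Nfatc1 and 7.48% of Tnfrsf11a UMIs. In barcodes at 30 and more, 6 fibroblast genes together had 344 CPM at peak, 816 at plateau and 4397 at resolution, and 9 macrophage genes 78.6, 145 and 3521. Of the 118 such barcodes at resolution 84 lay at 30 to 100, where 7.14% were osteoclast-like, and the part of the other cell types in the levels there was not tested.

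Barcodes were assigned to the donor or the host by the ratio of the CD45.1 and CD45.2 antibodies: a log2 ratio of at least 1 gave CD45.1 and of at most -1 CD45.2. From baseline to resolution 808, 5576, 2402 and 3249 barcodes were CD45.1 and 190, 219, 239 and 730 were CD45.2, and 73, 146, 187 and 632 fell between. At peak the resorption and fusion genes stood lower in CD45.1. Acp5 had 1268 CPM in CD45.1 and 4492 in CD45.2, Ctsk 2444 and 10656, and Mmp9 416 and 3085. Atp6v0d2 had 111 CPM in CD45.1 and 537 in CD45.2, Dcstamp 22.1 and 117, and Ocstamp 25.2 and 85.6. At plateau the variants stood closer together, with 11632 CPM of Ctsk in CD45.1 and 14647 in CD45.2 and 164 and 181 CPM of Dcstamp. At resolution Ctsk had 526 CPM in CD45.1 and 594 in CD45.2, but Dcstamp 24.2 and 3.72. At baseline Ctsk had 8.26 CPM in CD45.1 and 206 in CD45.2, and Atp6v0d2 3 UMIs (0.322 CPM) and 22 UMIs (12.1 CPM). However, 1 CD45.2 barcode held 18 of those 22 Atp6v0d2 UMIs and 197 of the 375 Ctsk UMIs of CD45.2 at baseline.

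**Figure D3:**
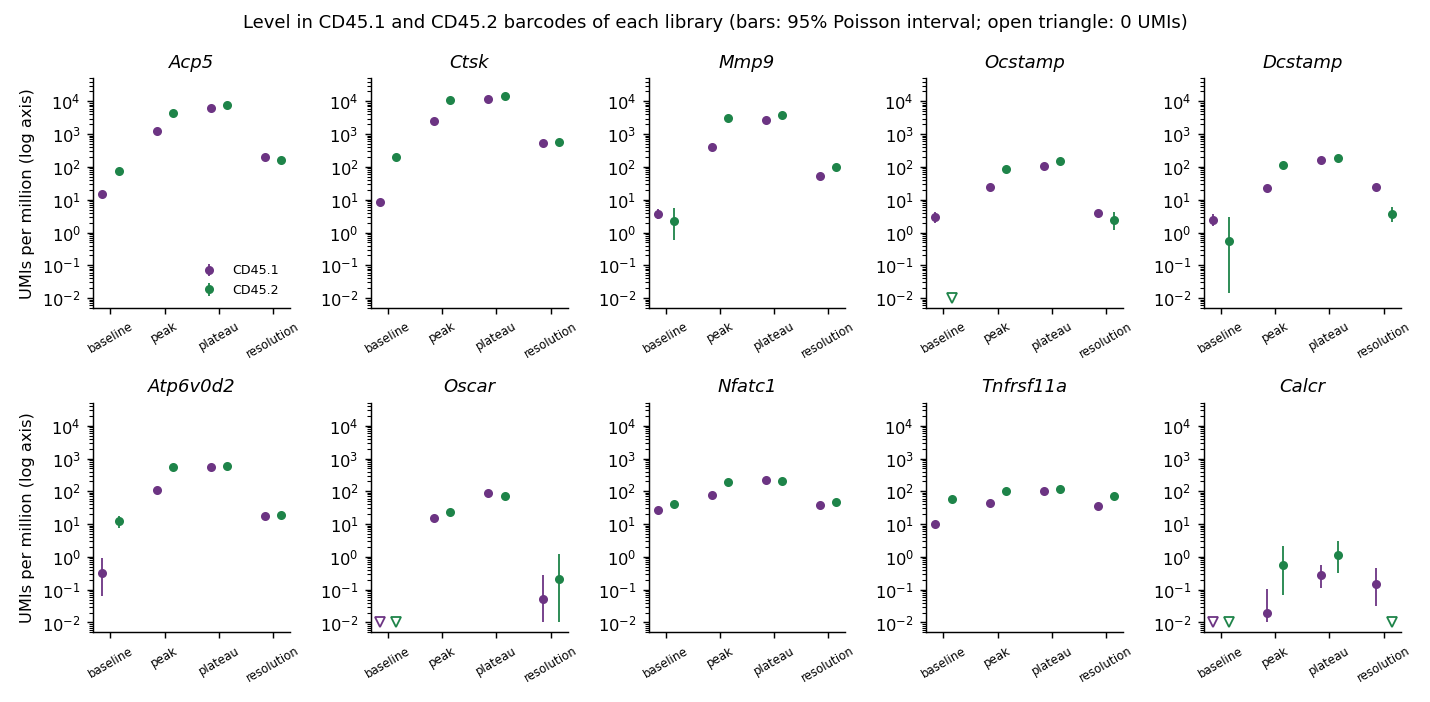
Level of each gene in CPM (log axis) in CD45.1 (left of each pair) and CD45.2 barcodes of the 4 libraries, with 95% Poisson intervals; open triangles mark 0 UMIs. At peak CD45.1 is lower for Acp5, Ctsk and Mmp9, at resolution it is higher for Dcstamp, and Tnfrsf11a is lower in CD45.1 in all 4 libraries.

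Ctsk, Atp6v0d2 and Tnfrsf11a were lower in CD45.1 in 4 of 4 libraries. Among these, Tnfrsf11a varied least between libraries, with 10.1 CPM in CD45.1 against 59.2 in CD45.2 at baseline, 42.9 against 101 at peak, 101 against 117 at plateau and 36.5 against 71.8 at resolution. Its fitted log2 ratio over the 4 libraries was -0.93 ± 0.31, an SE derived from the F statistic of edgeR's test. The ratios of single libraries ran from -2.55 at baseline to -0.22 at plateau. Its adjusted p was 0.0746 in edgeR's quasi-likelihood test with Benjamini-Hochberg adjustment, so it missed the threshold of 0.05. It passed with DESeq2 (-0.97, adjusted p 0.0225), without the plateau library (-1.24, adjusted p 0.0437 in edgeR) and without fibroblast-like barcodes (-1.06, adjusted p 0.0484 in edgeR). The last of these settings was added after the data were seen. Tnfrsf11a did not pass with DESeq2 size factors in edgeR, no filter on low counts, no replicate block or an antibody ratio of 2 (log2). Nor did it pass without barcodes with both antibodies, or without the baseline, peak or resolution library. By edgeR, 0 of the 9 members tested passed, against 11.1% of 12556 genes called higher in CD45.1 and 9.59% lower, and 1 had an unadjusted p under 0.05. Ctsk was at -1.39 ± 0.70 (SE from the F statistic, adjusted p 0.196, edgeR), and at -1.68 without fibroblast-like barcodes, which also have it. The others followed, with Atp6v0d2 at -1.08, Mmp9 at -0.90, Acp5 at -0.75, Nfatc1 at -0.26, Ocstamp at -0.24, Oscar at 0.11 and Dcstamp at 0.21. Thus 7 of 9 were negative, with a median of -0.75 against 0.00 over all genes tested. In simulated data for this comparison (12114 genes), 49.0% of genes changed by a log2 ratio of 1 were called. Of those changed by 2, 92.6% were called. Each changed gene was given a single ratio there. By library, however, the log2 ratio of Atp6v0d2 ran from -5.04 at baseline to -0.10 at resolution, and that of Ctsk from -4.63 to -0.18. How often members that vary so much would be called was therefore not measured.

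The share of barcodes at 30 and more was lower in CD45.1 at peak and plateau, with intervals that take barcodes of a library as independent. It was 216 of 5576 (3.87%, exact binomial interval 3.38 to 4.41) in CD45.1 against 63 of 219 (28.8%, 22.9 to 35.3) in CD45.2 at peak, and 464 of 2402 (19.3%) against 102 of 239 (42.7%) at plateau. At resolution it was 81 of 3249 (2.49%) against 18 of 730 (2.47%), and at baseline 0 of 808, which allows up to 0.456%, against 1 of 190. CD45.1 was lower in 3 of 4 libraries, by 12.2 percentage points on average (SD 13.8, n = 4), with a two-sided p of 0.25 in an exact paired permutation test, whose smallest possible p is 0.125.

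At like share the variants differed in other members. Oscar was higher in CD45.1 in all 4 bins compared: 47.8 CPM against 25.7 in CD45.2 at 100 to 300 of the peak library, 232 against 89.8 at 300 and more of peak, 82.5 against 14.5 at 100 to 300 of plateau and 267 against 195 at 300 and more of plateau. Nfatc1 was also higher in CD45.1 in 4 of 4, with 398 against 312, 396 against 343, 464 against 215 and 434 against 359 CPM in CD45.1 and CD45.2 in the same bins. Mmp9 was lower in CD45.1 in 4 of 4, with 2378 against 4775, 5485 against 7500, 4383 against 5206 and 7510 against 8204 CPM. Dcstamp was higher in CD45.1 in 3 of 4 and its intervals overlapped in the 2 middle ones. The counting intervals of Oscar and Mmp9 did not overlap in any of these bins, and those of Nfatc1 overlapped at 300 and more of peak. The CD45.2 bins held 38, 16, 51 and 33 barcodes, and at 100 to 300 of plateau their median depth was 959 UMIs against 11740 in CD45.1. No test was run, since too few libraries had 20 barcodes of each variant, and the bins of 2 libraries are not replicates.

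**Figure D4:**
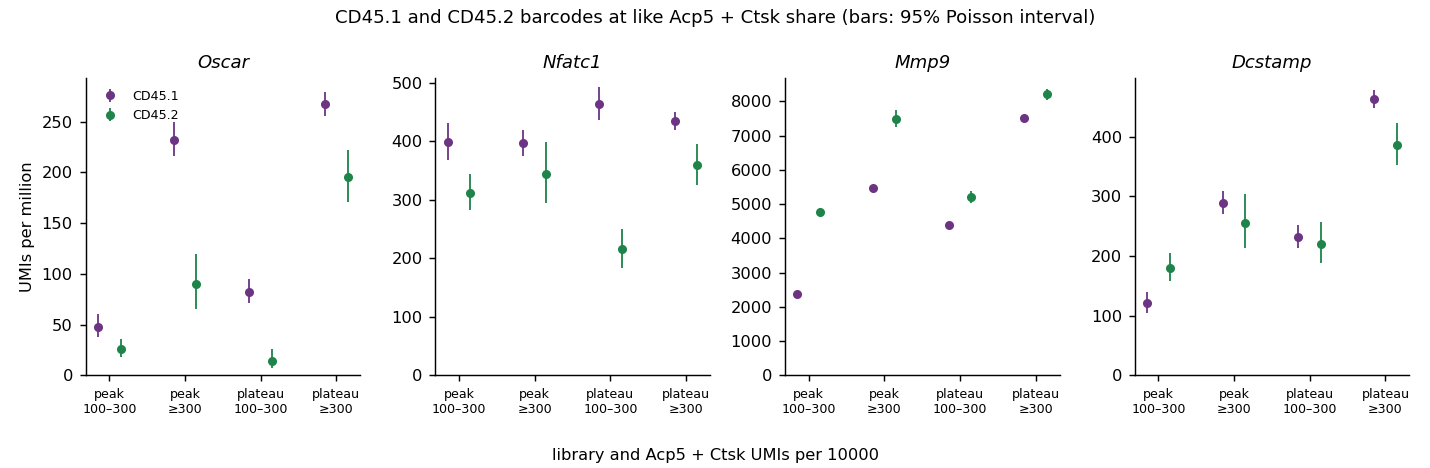
Level of Oscar, Nfatc1, Mmp9 and Dcstamp in CPM in CD45.1 (left of each pair) and CD45.2 barcodes of the same library and the same range of Acp5 plus Ctsk share per 10000 UMIs, with 95% Poisson intervals. Oscar and Nfatc1 are higher and Mmp9 is lower in CD45.1 in all 4 pairs.

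Among barcodes under 10 per 10000, 14.4% of 12282 genes were called higher in CD45.1 and 14.4% lower, and of the members with enough counts Dcstamp passed. Its CD45.1 counts were enough for the filter on low counts without those of CD45.2, so the number of members that passed is not read as support. Dcstamp was higher in CD45.1, with a log2 ratio of 3.84 ± 0.51 (SE from edgeR's F statistic, 4 libraries). Its adjusted p was 0.00227 in edgeR's quasi-likelihood test. It had 23, 56, 48 and 426 UMIs in CD45.1 from baseline to resolution and 0, 0, 0 and 9 in CD45.2. With 3 libraries at 0 the fitted ratio depends on edgeR's prior count, and the resolution library alone gave a 10.7-fold ratio (5.57 to 23.51), from 23.8 CPM in CD45.1 against 2.23 in CD45.2. Over the alternatives its adjusted p in edgeR or DESeq2 ran between 2.7e-05 and 0.108, the highest without the library block, and without the resolution library it was 0.0377. The cluster led by Ccl17 and Mgl2 held 413 of the 426 UMIs in CD45.1 and 7 of the 9 in CD45.2, and 32.2% of CD45.1 against 9.44% of CD45.2 barcodes under 10 at resolution. Within it Dcstamp had 52.9 CPM (47.9 to 58.3) in CD45.1 and 13.1 (5.28 to 27.0) in CD45.2. Ocstamp was next, at 1.58 (adjusted p 0.0586, edgeR), and Tnfrsf11a at -0.78 (adjusted p 0.151, edgeR).

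The surface antibodies gave a readout that the scale did not use. CD61, integrin β3, which osteoclasts use to attach to bone, had 6.83 UMIs per 1000 antibody UMIs at 0, 7.93 at 10 to 30, 13.8 at 30 to 100, 230 at 100 to 300 and 451 at 300 and more, a 66.1-fold difference between the end bins. The antibody was close to its lowest level until 30 to 100 and then high in the bins in which Mmp9 and Atp6v0d2 appeared. At 100 to 300 it had 140.9 per 1000 at peak, 293 at plateau and 18.7 at resolution, and at 300 and more 464 at plateau and 426 at peak. CD115, the receptor of the growth factor M-CSF, had 30.3 at 300 and more against 4.31 at 0, and in the top bin 24.2 at plateau against 49.4 at peak. CD11b, used in the sort, had 194 at 300 and more against 315 at 0. CD14, a receptor of monocytes and macrophages, was highest at 10 to 30 with 59.7 and lowest at 300 and more with 6.80. These are shares of a total that CD61 itself enlarges, and no isotype control is among the 92 antibodies.

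**Figure D5:**
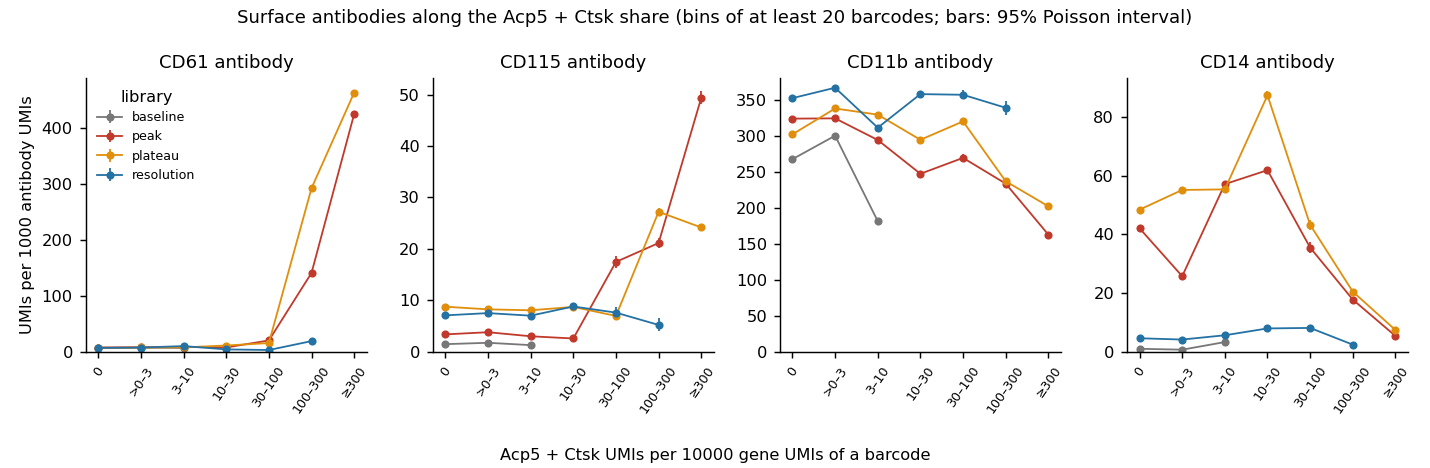
UMIs per 1000 antibody UMIs of CD61, CD115, CD11b and CD14 along the Acp5 plus Ctsk share of a barcode's UMIs, per library for bins of at least 20 barcodes, with 95% Poisson intervals. CD61 stays low up to 30 to 100 and reaches 464 at plateau and 426 at peak in the top bin.

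Other genes of the pathway, taken from lists of their known roles, were set beside the members in barcodes at 30 and more over barcodes at 0, with the libraries pooled. Of 13063 genes, 18.1% were at least 2-fold higher and 22.8% at least 2-fold lower, with a median log2 ratio of -0.05. Of 14 acid secretion genes 12 were higher and 0 lower, with a median log2 ratio of 2.73. Car2, the carbonic anhydrase that supplies the protons, had 162 CPM against 0.678 (239-fold), Atp6v1a, a pump subunit, 761 against 91.5 (8.32-fold), and Tcirg1, the osteoclast pump subunit, 433 against 56.0 (7.73-fold). The bins at 30 and more and at 0 hold the libraries in unequal shares, so the counts were also taken within libraries. Within peak 24.6% of 10688 genes were higher and 18.9% lower, and within plateau 22.7% of 10429 were higher and 16.2% lower. Of the 14 acid secretion genes 12 were higher and 0 lower in each, with medians of 2.41 at peak and 2.18 at plateau. Of 8 genes listed with matrix degradation, pooling gave 3 higher (Ckb, Mmp14 and Gpnmb) and 1 lower (Ctss), but within peak and within plateau 2 were higher, Mmp14 and Ckb, and Ctss lower. The membrane protease gene Mmp14 had 470.5 CPM against 82.7 at peak and 472 against 141 at plateau. Ckb, which encodes brain-type creatine kinase, an energy enzyme and not a protease, had 2989 against 81.8 CPM at peak and 3521 against 146 at plateau, but 467 against 434 at resolution. Gpnmb had 17.3 against 9.38 CPM at peak and 22.2 against 21.7 at plateau, so it was not 2-fold higher within either.

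The lists of regulation were mixed. Of 11 transcription factors and coactivators 4 were higher and 4 lower, pooled and within peak and plateau each. Jdp2 had 1020 CPM against 97.9 at peak and 1219 against 104.6 at plateau. Prdm1, a repressor of genes that block osteoclast formation, had 143 against 33.1 CPM at peak and 155 against 39.6 at plateau, and the coactivator gene Ppargc1b 65.1 against 1.88 and 78.2 against 2.71. The lower ones included Irf8, pooled 8.16-fold, and Bcl6, pooled 3.99-fold, which are known to restrain osteoclast formation. Of 13 fusion and attachment genes 5 were higher, led by the kinase gene Src at 109-fold, Itgb3, the gene of integrin β3, at 39.1-fold and Myo10 at 27.2-fold, all pooled, and 3 were lower. Within libraries these counts were 5 higher and 5 lower at peak and 5 higher and 4 lower at plateau. Of 15 genes of RANK signalling 2 were higher and 4 lower, with a median of -0.41, but within peak 0 of 13 and within plateau 1 of 14 were higher and 4 lower in each. The higher ones included Tnfrsf11b, the soluble RANKL decoy receptor made by stromal cells, at 11.7-fold, and Tnfsf11, the gene of RANKL, at 2.77-fold on 17 against 13 UMIs. Without fibroblast-like barcodes the log2 ratio of Tnfrsf11b was 6.92 in place of 3.52 and that of Tnfsf11 was -3.66.

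Between the variants, the same lists gave calls in 3 of 5. Over all barcodes, 5 of 15 RANK signalling genes were higher in CD45.1 and 1 lower by edgeR's quasi-likelihood test, with a median log2 ratio of 0.37, against 11.1% of 12556 genes higher and 9.59% lower. Tnfrsf11b was lower in CD45.1 (-3.71, adjusted p 0.00444, edgeR), whereas Tyrobp, the adaptor that pairs with costimulatory receptors, was higher (1.21, adjusted p 0.0152) and so was the phospholipase gene Plcg2 (1.16, adjusted p 0.00805). Of 11 transcription factors 3 were higher and 0 lower, Irf8 by 1.30 (adjusted p 0.0297, edgeR), Fosl2 by 0.98 (0.0481) and Bcl6 by 0.95 (0.0238). Of 13 fusion and attachment genes 4 were higher, among them Adam8 (log2 ratio 1.72, adjusted p 0.00214, edgeR), and 4 lower, among them Cd81 (-1.58, 0.0163) and Myo10 (-1.57, 0.0455). Of 14 acid secretion genes and of 8 matrix genes 0 passed in either direction, with medians of -0.03 and -0.35. Among barcodes under 10 per 10000, 14.4% of 12282 genes were higher in CD45.1 and 14.4% lower. There 5 of 15 RANK signalling genes were higher and 2 lower, and 3 and 2 of 11 transcription factors. For 13 fusion and attachment genes it was 3 and 4. Acid secretion had 2 higher and 1 lower of 13 tested, and matrix degradation 1 and 1 of 8. Fibroblasts are known to express both Tnfrsf11b and Cd81, and fibroblast-like barcodes were 1.26% of CD45.1 against 8.68% of CD45.2 at peak and 1.96% against 12.6% at plateau. Without them Tnfrsf11b was at -3.52 (adjusted p 0.0175, edgeR) and Cd81 at -1.92 (0.0183). The variants also differed in barcodes at 30 and more, 3.87% of CD45.1 against 28.8% of CD45.2 at peak. At 30 and more over 0, pooled, Tyrobp stood at -0.41, Plcg2 at -1.59, Irf8 at -3.02, Bcl6 at -1.99 and Adam8 at -2.18 (log2). There Fosl2 stood at 0.43, Cd81 at -2.87, Myo10 at 4.76 and Tnfrsf11b at 3.52. The part of this mix in the calls was not tested. Without the peak library the adjusted p in edgeR was 0.0701 for Tyrobp, 0.106 for Irf8, 0.108 for Fosl2, 0.0878 for Bcl6, 0.0736 for Cd81 and 0.176 for Myo10. Each of these but Tyrobp also missed 0.05 without at least 1 other library. Tnfrsf11b, Plcg2 and Adam8 kept an adjusted p under 0.05 with each library left out, the highest being 0.0205, 0.03005 and 0.0145.

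Over the 48 sums of a library and a cluster, the genes outside the set whose log2 level was most like the summed level of the 8 members other than Acp5 and Ctsk were Slc9b2 (0.93), Mt3 (0.90), Fblim1 (0.89), Atp6v1c1 (0.88), Atp6v1g1 (0.87), Serpind1 (0.87), Rufy4 (0.87), Akap6 (0.87), Fam57b (0.86), Jdp2 (0.86), Nyap2 (0.86) and Atp6v1d (0.85). Slc9b2 encodes a sodium-proton exchanger known from osteoclasts, and Atp6v1c1, Atp6v1g1 and Atp6v1d are further subunits of the proton pump. Among the members the correlation with this sum was 0.95 for Mmp9, 0.91 for Atp6v0d2, 0.89 for Acp5 and 0.65 for Tnfrsf11a. Mmp9, Atp6v0d2 and Tnfrsf11a are among the 8 summed members and Acp5 is not, so these values are not directly comparable. Oscar was most like 4833415N18Rik and Nyap2 (0.99 each), Dcstamp most like Bdh1 and Nyap2 (0.86 each), and Ctsk most like Tsc22d1 (0.84) and Mmp14 (0.83). The sums share libraries and depth, so these Pearson correlations are a description.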

How the data were processed

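Gene and antibody UMIs were counted in 4 libraries of single cells (10x Genomics 3' v3.1). The deposited matrices hold raw UMI counts; per the submitters' processing notes, the authors used Cell Ranger 6.1.2 with the mm10 build, and Seurat 4.4.0 is listed without a step. The genes and lists were chosen with earlier results of these data known.

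Of 15501 barcodes, 14451 were kept, which had 300 genes or more and no more than 10% of UMIs from mitochondrial (mt-) genes, and 20 barcode sequences occur in more than 1 library. No doublet caller was run; leaving out barcodes in which both CD45 antibodies reached 10 UMIs was an alternative. UMI counts were summed per group and given as CPM of gene UMIs, with exact Poisson intervals for counting error and a limit of 3 counts for a count of 0. Stage ratios used genes with at least 30 UMIs in the pair and 0.5 counts added, and have no test. CD45.1 and CD45.2 sums (8 sums, 4 libraries, library as block, 3 residual degrees of freedom before moderation) were tested with edgeR 4.0.16 (quasi-likelihood, TMM, Benjamini-Hochberg), and DESeq2 1.42.0 was an alternative. The pairing of the 2 variants comes from their shared library, so the main fit is the blocked one. No source used here says whether animals were pooled, and p-values measure the spread between libraries. In simulated data without any change, edgeR called 0 of 12061 genes.

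Clustering used scanpy 1.11.5 (2000 variable genes, 30 components, 15 neighbours, Leiden resolution 0.8, without the antibodies), with "-like" names given where 3 or more markers, and 50% or more of those listed for a type, stood out; resolutions of 0.4 and 1.2 were alternatives. List genes named are the 3 with the highest ratio along the scale and, between variants, the 3 largest ratios past 0.05. The lower genes Irf8, Bcl6 and Ctss, and counts of list genes within libraries, were added after values were seen. The 12 genes most like the members' sum needed at least 50 UMIs, with 5 CPM added before the logarithm.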

Additional observations from a re-analysis of the deposited data

Results flagged for a closer look

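Several members had a CD45.1 over CD45.2 ratio of opposite sign in different libraries. These differences between libraries were not tested, since each has 1 value per gene. Acp5 had a log2 ratio of 0.28 at resolution and -2.38 at baseline, a difference of 2.66. For Dcstamp it was 2.66 at resolution and -2.41 at peak, a difference of 5.07. For Nfatc1 it was 0.14 at plateau and -1.39 at peak, a difference of 1.53. For Oscar it was 0.34 at plateau and -0.59 at peak, a difference of 0.93. For Ocstamp it was 3.43 at baseline, where CD45.2 had 0 UMIs and 0.5 counts were added, and -1.77 at peak, a difference of 5.20.

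Barcodes that the filters on genes and mitochondrial UMIs removed also held Acp5 and Ctsk. At peak 117 of 549 removed barcodes (21.3%) and at plateau 117 of 276 (42.4%) reached 30 per 10000, with medians of 1632 and 3247 UMIs. It was 0 of 57 at baseline, which allows up to 6.27% (exact binomial interval), and 0 of 168 at resolution.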

How the results depend on the processing

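The summed level of the 10 genes was 122 CPM at baseline, 5257 at peak, 21859 at plateau and 959 at resolution. It was 6037 at peak, 21048 at plateau and 867 at resolution with edgeR's TMM totals, and 5381 at peak and 22209 at plateau without a barcode filter. With at most 5% mitochondrial UMIs it was 4237 at peak, 14586 at plateau and 888 at resolution. Without barcodes with both CD45 antibodies it was 129 at baseline, 5227 at peak and 21608 at plateau. Without fibroblast-like barcodes, an alternative added after seeing the data, it was 112 at baseline, 5534 at peak and 23839 at plateau. In each of these the order of the 4 stages was the same.

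In all barcodes, 2597 genes and 0 members passed 0.05 between CD45.1 and CD45.2. Without the replicate block 513 genes passed, and leaving out 1 library gave 1047 to 2082 genes and 0 to 1 members. With DESeq2, and without fibroblast-like barcodes, 1 member passed, Tnfrsf11a. Signs of small log2 ratios turned. Ocstamp was 0.40 with DESeq2 and -0.53 to 0.36 with 1 library left out, positive without peak. Dcstamp was -0.39 without the replicate block and -0.65 to 1.28 with 1 library left out, negative without baseline (-0.0016) and without resolution. Oscar was -0.12 at an antibody ratio of 2 (log2), -0.083 without fibroblast-like barcodes and -0.34 to 0.39 with 1 library left out, negative without plateau. Nfatc1 was -0.46 to 0.020 with 1 library left out, positive without peak. Under 10 per 10000, 3526 genes and 1 member, Dcstamp, passed. Without the replicate block these were 1670 and 0, and leaving out 1 library gave 1774 to 3240 genes. With no filter on low counts, at an antibody ratio of 2 and without barcodes with both antibodies 2 members passed, the second being Ocstamp. Nfatc1 was -0.070 to 0.27 with 1 library left out, negative without peak (-0.021) and without plateau. The causes were not tested.

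At 25% of the highest bin 4 of 7 genes appeared in the same bin, and leaving out 1 library left 6 to 7. Osteoclast-like barcodes held 93.1% of the 8 members' UMIs, 93.3% at resolution 0.4 and 93.4% at 1.2. A test at 30 and more with its alternatives was not run for want of CD45.2 barcodes at baseline and resolution, and an isotype scale was not run. With 1 library per stage, differences between stages rest on 4 libraries without replicates.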
